A study of Mus musculus with 12 samples.

Results

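The genes described here are 10 members of the epidermal growth factor (EGF) receptor family and its ligands, taken by name from the 24906 genes listed in each expression table: the ligands Areg, Ereg, Hbegf, Tgfa, Btc and Epgn, the receptors Egfr, Erbb2 and Erbb3, and the receptor inhibitor Errfi1. EGF-type ligands are made as membrane-anchored precursors, are released from the cell surface by metalloproteases, and bind EGFR, which then pairs with itself or with another receptor of the family and passes the signal to RAS, RAF and the MAP kinases. ERBB2 has no known ligand of its own and ERBB3 has a weak kinase, so both act mainly as partners in such pairs, while ERRFI1 (also called MIG6) binds the EGFR kinase and lowers its activity. In the intestine this pathway supports crypt growth and repair, and the BRAF V600E allele carried by these tumor cells acts downstream of the receptors.

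RNA-Seq was performed on 12 libraries of mouse small intestinal tumor organoids, which are epithelial cell clusters grown in culture from macroscopic tumors. All 12 carried the labelled genotype Smad4KO;BRAFV600E/+;pINDUCER-SMAD4, in which Smad4 was deleted by a tamoxifen-inducible Cre recombinase driven by the Villin promoter of intestinal epithelium and a lentiviral construct returns SMAD4, the transcription factor common to TGFβ and BMP signaling, when doxycycline (dox) is given. Organoids received 4 µg/mL dox or no dox for 48 h, either in BME, a basement membrane extract for 3D growth (untreated lines 682, 700 and 889, dox lines 700 and 889), or on tissue culture plastic (untreated and dox lines 560, 700 and 889). The remaining BME library, of line 682, is labelled mock dox by its treatment but as induced by its title and genotype. It was counted as a control, as in the study. Its pair with untreated line 682 is given apart. The transduced lines were selected with puromycin, and per the study's methods the culture medium of every group contained added EGF, so each level below was measured in cells already supplied with a ligand for EGFR.

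Smad4 itself, the gene put back by the construct, measured 6.53 FPKM without dox and 17.2 FPKM with it in BME line 700, and 6.23 and 27.3 FPKM in BME line 889. On plastic it measured 1.54 and 73.6 FPKM in line 560, 2.99 and 18.1 FPKM in line 700, and 4.76 and 48.9 FPKM in line 889. The mock library of line 682 had 10.3 FPKM of Smad4, and its untreated partner 8.88 FPKM. FPKM corrects fragment numbers for transcript length and library size. The BME libraries held 14542725 to 16380201 rebuilt reads and the plastic libraries 16950565 to 20999309, and every member other than Epgn rested on 106 to 8699 reads in each library. The untreated line 560 library on plastic stood apart by transcript length: relative to each gene's mean over the 6 plastic libraries, its median level (log2) was 0.43 for the shortest transcripts (up to 1605 bases) and -0.53 for the longest (4545 bases or more), against -0.21 to 0.01 and -0.03 to 0.16 in the other 5. The members' differences in line 560 on plastic are therefore given with and without a correction for length where it moves them, whereas its levels, ligand sums and shares, and its values for genes that are no member, are uncorrected. Fibroblast, immune and endothelial markers summed to at most 5.83 FPKM per list in any library, and the epithelial markers to 3892 to 9520 FPKM in BME and 11665 to 17185 FPKM on plastic. Among the epithelial markers Cdx1 was listed at 0 in 8 of 12 libraries, with and without dox, and measured 8.28 and 10.1 FPKM in line 700 in BME and at most 0.268 FPKM in the other 2.

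In the mouse genome (NCBIM37, the build also called mm9), 4 of the 6 ligand genes lie within 375 kb on chromosome 5: Epgn (91456490 to 91464241), Ereg (91503643 to 91522675), Areg (91568641 to 91577458) and Btc (91786287 to 91831939). Tgfa lies on chromosome 6 (86145420 to 86225151), Egfr (16652206 to 16818161) and Erbb2 (98273784 to 98299030) on chromosome 11, Erbb3 on chromosome 10 (128004579 to 128026708) and Errfi1 on chromosome 4 (150228028 to 150243001).

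Promoter windows, 250 bases before to 50 after a start site, were taken from RefSeq (GRCm38.p6) for 7 of the 10 members. None was searched for Erbb3, Ereg or Hbegf, so the matches below say nothing about these genes. Each window was searched on both strands for 6 motifs: a cAMP response element (CRE, TGACGTCA), an AP-1 site (TGANTCA), an ETS site (CCGGAAG), the SMAD box CAGAC, the SMAD palindrome GTCTAGAC and the GC-rich SMAD motif GGCGCC. The CRE was present in 1.79% of 32851 promoter windows of all genes, and among the members in Areg and in the second of 2 Errfi1 start sites. These 2 windows are shown because they held the CRE. The 200 bases before each start site, on the plus strand, read 5′ to 3′ with the CRE in capitals:
Areg, chr5:91139399-91139598: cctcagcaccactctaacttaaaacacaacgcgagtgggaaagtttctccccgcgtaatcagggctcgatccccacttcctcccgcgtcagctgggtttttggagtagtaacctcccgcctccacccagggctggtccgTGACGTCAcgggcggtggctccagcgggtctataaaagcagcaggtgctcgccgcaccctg
Errfi1, second start site, chr4:150854870-150855069: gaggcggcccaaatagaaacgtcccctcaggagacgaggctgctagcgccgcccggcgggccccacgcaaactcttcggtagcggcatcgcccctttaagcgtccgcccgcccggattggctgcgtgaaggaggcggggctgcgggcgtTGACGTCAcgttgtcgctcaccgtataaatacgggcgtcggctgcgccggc
The first base of the CRE lay at -61 in Areg and -51 in Errfi1, counted from the start site. The SMAD box, present in 49.6% of all windows, was matched once each in Tgfa (-90), Egfr (32) and Epgn (31). GGCGCC (11.9% of windows) was matched in Tgfa (25) and the ETS site (8.86% of windows) in Egfr (-120). Of the member windows searched, none held the AP-1 site (7.81% of windows) or the SMAD palindrome (0.213%). None of the 6 motifs was matched in Erbb2, Btc or the first Errfi1 start site. No motif contains another, and a match describes the letters only.

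Levels without dox were compared first, within each table, since the tables were normalized separately. In BME the highest mean level was that of Erbb3, at 56.4 ± 11.6 FPKM (SD, n = 3), followed by Errfi1 at 53.3 ± 15.6, Erbb2 at 37.8 ± 1.70 and Areg at 36.8 ± 14.4 FPKM. Hbegf measured 24.2 ± 12, Tgfa 20.2 ± 4.19, Btc 19.3 ± 4.00 and Egfr 8.10 ± 2.55 FPKM, with Ereg at 2.43 ± 0.651 FPKM. Neighbours in the upper part of this order did not separate: Erbb3 was above Errfi1 in 1 of 3 lines and Erbb2 above Areg in 1 of 3. The lowest Btc value (16.8 FPKM) lay above the highest Egfr value (11.0 FPKM), and the lowest Egfr value (6.37 FPKM) above the highest Ereg value (2.93 FPKM), so these steps did not overlap.

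On plastic Errfi1 led at 86.9 ± 43.3 FPKM (SD, n = 3), with Areg at 82.3 ± 11.0 FPKM, above which Errfi1 lay in 1 of 3 lines. Hbegf measured 39.1 ± 14.8, Tgfa 24.4 ± 10.4, Egfr 20.0 ± 10.1, Erbb2 17.7 ± 4.39 and Btc 13.1 ± 0.611 FPKM. Erbb3 measured 11.0 ± 5.30 and Ereg 8.07 ± 4.62 FPKM. Every Areg value (71.2 FPKM or more) was above every Hbegf value (53.9 FPKM or less), and every Erbb2 value (13.9 FPKM or more) was above every Btc value (13.6 FPKM or less). From Tgfa to Erbb2, and from Btc to Ereg, the ranges of neighbours overlapped. Erbb3 was thus first in the order in BME and 8th on plastic, a description of 2 orders and not a test of its level between tables. Epigen (Epgn) was at or near 0 in all 12 libraries (at most 0.154 FPKM, 0 to 4 reads), so no difference in it was detectable at this depth.

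**Figure D1:**
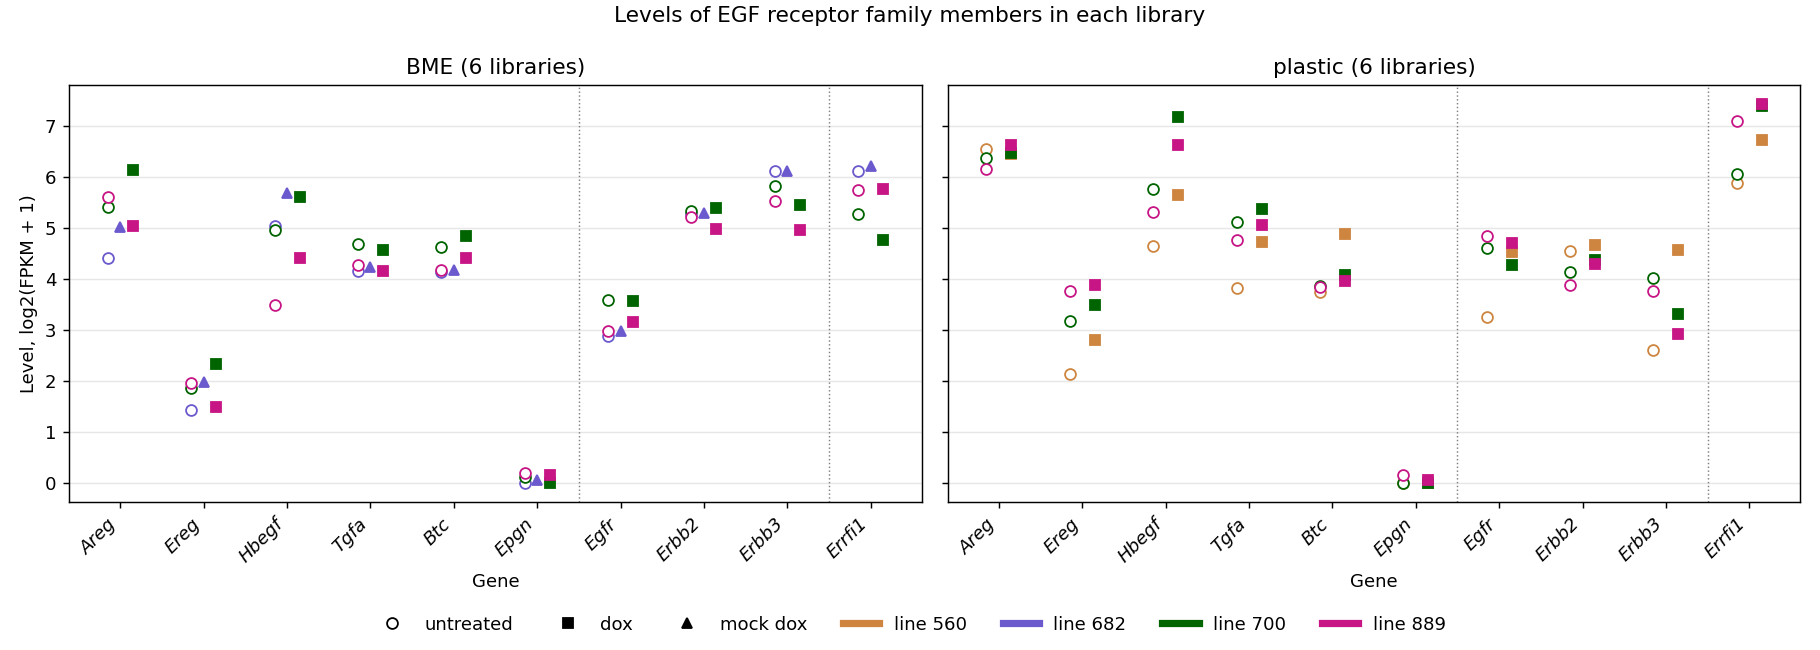
Level of each member, as log2(FPKM + 1), in the 6 BME libraries (left) and the 6 plastic libraries (right). Open circles are untreated, squares dox and the triangle the mock library, coloured by organoid line, and dotted lines part ligands, receptors and the inhibitor. Epgn sits at 0.154 FPKM or less in every library, and every other member is at 1.69 FPKM or above throughout.

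Areg was the most abundant ligand in 8 of 12 libraries and Hbegf in the other 4. The 6 ligands summed to 87.9 FPKM in untreated line 682, 124 FPKM in untreated line 700 and 97.1 FPKM in untreated line 889 in BME. The mock library of line 682 summed to 121 FPKM, dox line 700 to 172 FPKM and dox line 889 to 92.1 FPKM. The sum was thus higher with dox in BME line 700 and lower in BME line 889. On plastic it was 146 FPKM without and 197 FPKM with dox in line 560, 192 and 299 FPKM in line 700, and 163 and 258 FPKM in line 889, higher in 3 of 3 lines. Areg made up 63.6% of the untreated and 44.3% of the dox sum in plastic line 560, 43.0% and 29.3% in line 700, and 43.7% and 38.1% in line 889. Hbegf made up 16.6% and 25.0%, 28.1% and 48.3%, and 24.1% and 38.2% in the same order. On plastic, therefore, the share of Hbegf was larger with dox in each line and that of Areg smaller, in line 560 without a correction for length. In BME the Hbegf share was larger in the treated library of each line, at 24.5% and 27.8% in line 700, 10.7% and 22.3% in line 889, and 36.3% and 42.3% in the mock pair. The Areg share in BME was larger with dox in line 700 (33.9% and 40.3%) and in the mock pair (23.3% and 26.1%) and smaller in line 889 (49.3% and 34.9%).

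**Figure D2:**
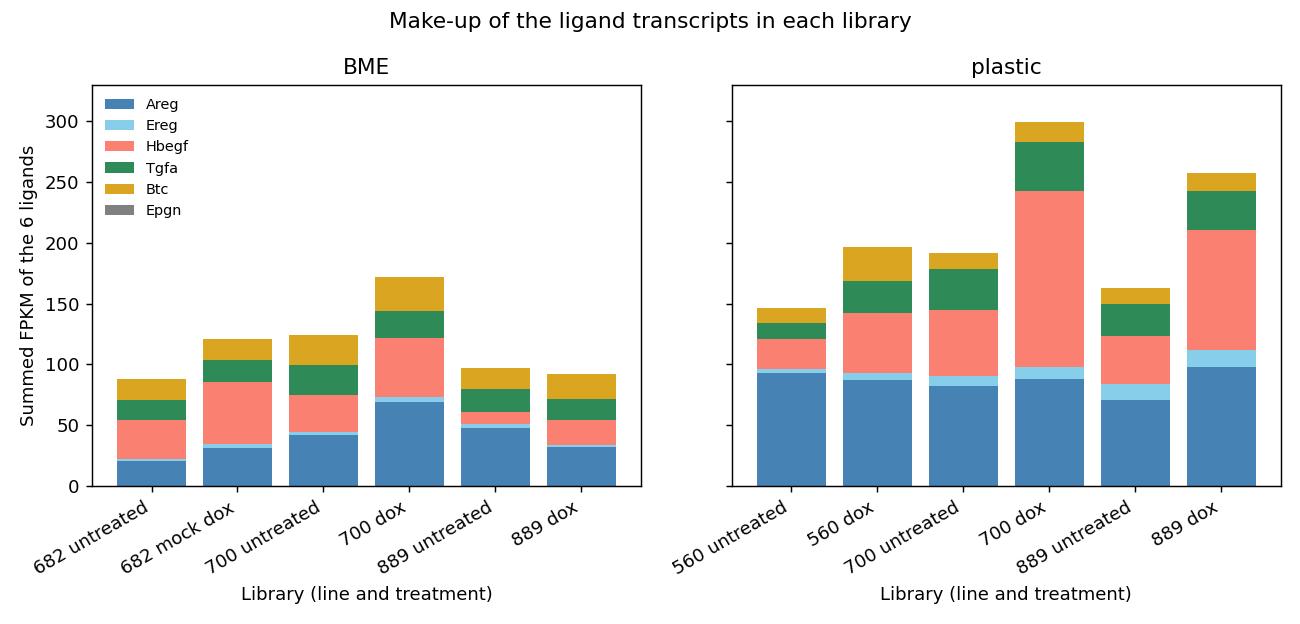
Summed FPKM of the 6 ligands in each library (bars from 0, 1 bar a library), divided by ligand, in BME (left) and on plastic (right). The plastic sums are 146, 192 and 163 FPKM untreated and 197, 299 and 258 FPKM with dox in lines 560, 700 and 889, and Hbegf makes up a larger share with dox in each.

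Whether dox altered the members was then asked line by line, as the difference of log2(FPKM + 1) between the treated and the untreated library of a line. Of the 9 members that passed a minimum mean of 0.5 FPKM in either table, 1 was higher by over 0.5 in both BME pairs, and the same gene, Hbegf, was higher by over 0.5 in all 3 plastic pairs. Over all genes tested, 2.09% met that condition in BME and 3.02% on plastic, and 0.735% (88 of 11977) met it in all 5 pairs. No member was lower by over 0.5 in every pair, against 1.18% of genes in BME and 2.38% on plastic. The median difference over all genes tested lay between -0.01 and 0.01 in each pair. Within the tables, dox and control libraries were also compared with limma over all genes, with Benjamini-Hochberg adjustment. A call needed a change of over 1 in size and an adjusted p under 0.05. In limma 0 of 9 members were called in BME, on plastic or as a difference between them, where 0.0231% (3), 0.0324% (4) and 0% (0) of genes were called. At an unadjusted p under 0.05 there was 1 member in each comparison, Erbb3 in BME, Hbegf on plastic and Errfi1 between them, against 4.09% (531), 8.29% (1022) and 2.53% (303) of all genes, so a count of 1 in 9 is no result about the members. limma-voom on the rebuilt reads also called 0 members in each comparison within a table. The study, with DESeq2 and the same thresholds, reported far more regulated genes in BME and on plastic. A count of 0 members here is therefore no evidence that dox left them unchanged. The lines are independent organoid lines, and with 2 or 3 of them these p-values measure the spread between few samples.

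**Figure D3:**
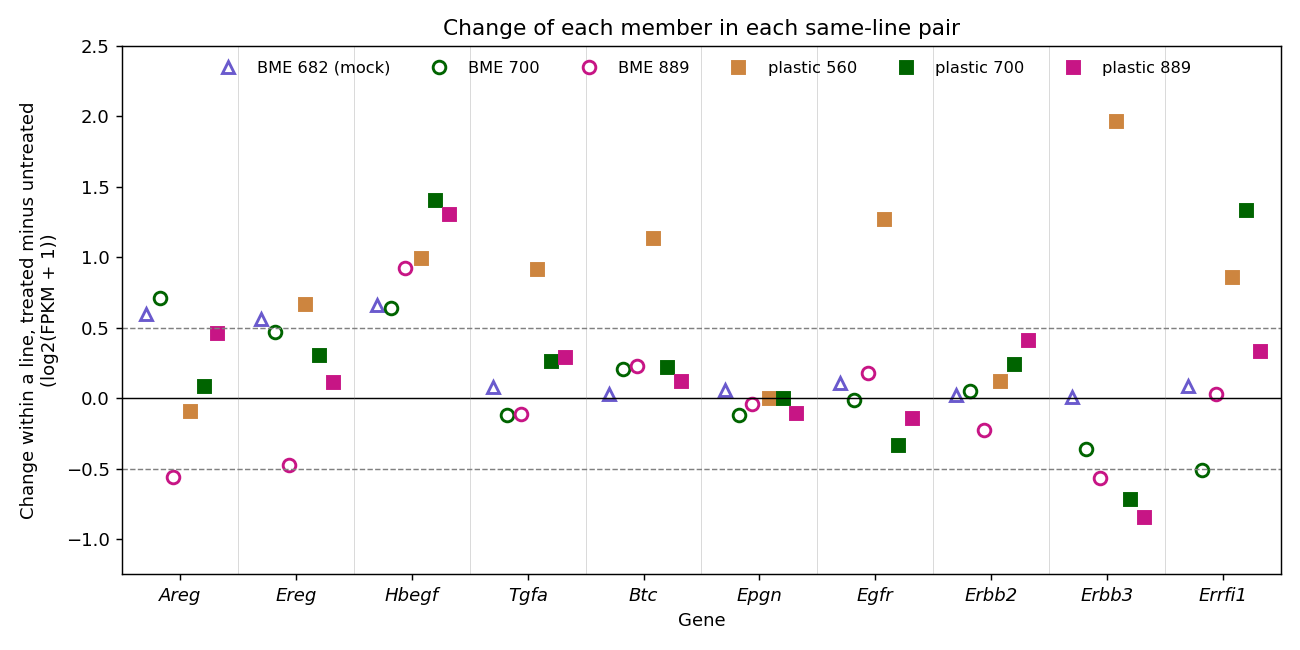
Difference of log2(FPKM + 1), treated minus untreated, for each member in each same-line pair. Open triangles are the mock pair, open circles the BME dox pairs and filled squares the plastic dox pairs, coloured by line, with dashed lines at 0.5 and -0.5. Hbegf has all 6 pairs above 0.5, and Erbb3 runs from 1.97 in plastic line 560 to -0.84 in plastic line 889.

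Hbegf, the heparin-binding ligand whose precursor is shed at the cell surface and which binds EGFR, was the member with the largest mean absolute difference over the 5 dox pairs (1.06). In BME it measured 30.4 FPKM without dox and 47.9 FPKM with it in line 700, and 10.3 and 20.5 FPKM in line 889. Its plastic levels were 24.3 and 49.3 FPKM in line 560, 53.9 and 145 FPKM in line 700, and 39.2 and 98.5 FPKM in line 889. The dox library was the higher in 5 of 5 pairs, by 0.64 and 0.93 (log2) in BME and by 0.99, 1.41 and 1.31 on plastic, yet untreated line 700 on plastic lay above dox line 560, so the plastic arms overlapped. The limma change on plastic was 1.24 (SE 0.46, limma adjusted p 0.570), and with the organoid line as a block it was the same with SE 0.20 (limma adjusted p 0.139). In that blocked fit 2 of 9 members, Hbegf and Errfi1, were under an unadjusted p of 0.05, against 13.5% of all genes. In BME the limma change was 0.22 (SE 0.63, limma adjusted p 0.984) and, with the line as a block, 0.78 (SE 0.24, limma adjusted p 0.671), where Hbegf and Erbb3 were the 2 members under 0.05 against 7.41% of genes. Without the dox library of line 700 the unblocked BME change turned to -0.37, and without the untreated library of line 889 to -0.22. With the mock library counted as dox it was 0.74. The 4 control libraries ran from 10.3 to 51.0 FPKM and the dox libraries lay within that range, so in BME the arms overlapped.

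Hbegf was also higher in the mock pair, at 31.9 FPKM in untreated line 682 and 51.0 FPKM in the mock library, a difference of 0.66. Of the 88 genes higher by over 0.5 in all 5 dox pairs, 55 (62.5%) were also higher by over 0.5 in the mock pair, which is 0.459% of genes tested and 8.89% of the 619 genes that were higher in the mock pair (5.17% of 11977). The difference of Hbegf in the mock pair was similar in size to that in dox line 700 in BME, whereas Smad4 was 1.16 times as high in the mock library as in untreated line 682 and 2.64 times as high with dox in line 700. The labels give the mock library the construct in its genotype and dox marked as mock in its treatment, so they do not settle what it carried, and how dox and the construct each relate to the Hbegf difference cannot be told apart here. Markers of several cell types differed in the same BME libraries in which Hbegf was higher, though 0 passed in limma (lowest limma adjusted p 0.959). Over all genes tested, 2.09% were higher and 1.18% lower by over 0.5 in both BME dox pairs. Of 6 goblet cell markers, 5 were lower by over 0.5 in both BME dox pairs (Muc2, Tff3, Clca1, Fcgbp and Spink4) and 0 were higher. Of 8 epithelial markers, 3 were higher (Krt8, Krt18 and Krt19) and 0 lower. The other lists were mixed or rested on few genes: 1 of 6 Paneth cell markers was lower (Mmp7) and 1 higher (Itln1), 1 of 4 stem cell markers was lower (Lgr5), 1 of 4 enterocyte markers was higher (Sis), and of the enteroendocrine and tuft markers 2 of 8 passed the filter (Pou2f3 and Trpm5), with Pou2f3 lower. Without dox the goblet sum was 2620 FPKM in line 682, against 970 FPKM in its mock library, and without and with dox it was 1896 and 691 FPKM in line 700, and 4624 and 1900 FPKM in line 889. In the same order the Paneth sum was 63.2 and 14.8, 183 and 25.3, and 974 and 816 FPKM, and the stem cell sum 252 and 228, 202 and 136, and 305 and 239 FPKM. On plastic the goblet sum was 4651 and 1418 FPKM in line 560, 21.0 and 2.69 FPKM in line 700, and 4.36 and 299 FPKM in line 889, so Hbegf was higher with dox in line 889 where the goblet sum was higher as well. Of the epithelial markers, 0 were higher by over 0.5 in every plastic pair and Krt19 was lower in each, at 5718 and 3061, 4188 and 1633, and 3956 and 2645 FPKM. The Paneth sum on plastic was 522 and 215, 1.15 and 0.181, and 1.97 and 191 FPKM. The part of these markers in the Hbegf difference was not tested, and in bulk RNA fewer cells of a type and less RNA per cell cannot be told apart.

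The 5 genes whose 5 pair differences were nearest to those of Hbegf, by root mean square difference over 8006 genes with a mean of at least 5 FPKM in both tables, were Tspan8 (0.211), Slc31a2 (0.225), Ncbp1 (0.228), Sertad3 (0.233) and Ifngr1 (0.238). Tspan8, a tetraspanin of epithelial membranes, was higher by 0.59 to 1.32 in the 5 pairs. Ifngr1, a chain of the interferon γ receptor, was higher by 0.74 to 1.40.

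Areg and Ereg, which encode the EGFR ligands amphiregulin and epiregulin and are neighbours on chromosome 5, were described together. In BME Areg measured 42.0 FPKM without dox and 69.4 FPKM with it in line 700, but 47.8 and 32.2 FPKM in line 889. Ereg measured 2.67 and 4.08 FPKM in line 700, and 2.93 and 1.82 FPKM in line 889. Both ligands were thus higher with dox in line 700 (by 0.71 and 0.47) and lower in line 889 (differences of -0.56 and -0.48), and the difference turned with the line. In the mock pair both were higher, Areg at 20.5 and 31.5 FPKM (0.60) and Ereg at 1.69 and 2.99 FPKM (0.57). On plastic Areg measured 93.2 and 87.3 FPKM in line 560, 82.5 and 87.7 FPKM in line 700, and 71.2 and 98.3 FPKM in line 889. Its plastic differences of -0.09, 0.09 and 0.46 had a mean of 0.15 ± 0.28 (SD, n = 3), smaller than their spread. After correction for length they were 0.45, 0.0206 and 0.28, higher with dox in 3 of 3 lines, with a limma change of 0.25 (SE 0.15, limma adjusted p 0.617). Ereg measured 3.45 and 6.05, 8.07 and 10.2, and 12.7 and 13.8 FPKM in the same order, higher in 3 of 3 lines by 0.66, 0.31 and 0.11, with a mean of 0.36 ± 0.28 (SD, n = 3). The limma changes of Areg were 0.15 on plastic (SE 0.19, limma adjusted p 0.883) and 0.47 in BME (SE 0.43, limma adjusted p 0.959). Those of Ereg were 0.36 on plastic (SE 0.47, limma adjusted p 0.890) and 0.10 in BME (SE 0.30, limma adjusted p 0.984).

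Tgfa, the classic EGFR ligand TGFα, measured 24.9 FPKM without dox and 22.9 FPKM with it in BME line 700, and 18.5 and 17.0 FPKM in BME line 889. On plastic it measured 13.2 and 25.7 FPKM in line 560, 33.7 and 40.7 FPKM in line 700, and 26.3 and 32.5 FPKM in line 889. It was slightly lower in both BME pairs (-0.12 and -0.11) and higher in all 3 plastic pairs (0.91, 0.27 and 0.29). The mock pair differed by 0.08. The limma change in BME, where all 4 controls enter, was 0.0251 (SE 0.21, limma adjusted p 0.993), opposite in sign to the pairs, and -0.12 with the line as a block. On plastic it was 0.49 (SE 0.37, limma adjusted p 0.793), and without the untreated library of line 560 it was 0.12. The difference between environments was 0.47 (SE 0.46, limma adjusted p 1.00) and, with the line as a block, 0.61 (SE 0.26, limma adjusted p 0.910), and it was 0.0925 without the untreated library of line 560. In that blocked fit Errfi1 and Tgfa were the 2 of 9 members under an unadjusted p of 0.05, against 5.42% of genes.

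Btc, which encodes betacellulin, a ligand of EGFR and ERBB4, was higher with dox in 5 of 5 pairs, though by over 0.5 in 1 of them. In BME it measured 24.0 FPKM without dox and 27.8 FPKM with it in line 700, and 17.3 and 20.4 FPKM in line 889 (0.20 and 0.22), against 16.8 and 17.1 FPKM in the mock pair (0.03). Plastic levels were 12.4 and 28.6 FPKM in line 560 (1.14), 13.6 and 16.0 FPKM in line 700 (0.22), and 13.4 and 14.6 FPKM in line 889 (0.12). Every dox library on plastic lay above every untreated one, and line 560 stood apart from the other two. The limma change was 0.49 on plastic (SE 0.28, limma adjusted p 0.704) and 0.34 in BME (SE 0.21, limma adjusted p 0.959), and without the dox library of line 560 the plastic change was 0.21. With the line as a block the BME change was 0.21 (SE 0.11, limma adjusted p 0.677).

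Among the receptors, Egfr measured 11.0 FPKM without dox and 10.9 FPKM with it in BME line 700, and 6.92 and 7.94 FPKM in BME line 889, with 6.37 and 6.92 FPKM in the mock pair. Each BME difference was under 0.18. Plastic values were 8.64 and 22.2 FPKM in line 560, 23.4 and 18.3 FPKM in line 700, and 27.9 and 25.2 FPKM in line 889. The plastic difference was thus 1.27 in line 560 and -0.33 and -0.14 in the other lines. Egfr has the longest transcript of the members (10208 bases), and after correction for length its difference in line 560 was 0.35, with -0.24 and 0.23 in lines 700 and 889. The limma change was 0.26 on plastic (SE 0.43, limma adjusted p 0.917) and 0.26 in BME (SE 0.25, limma adjusted p 0.959), and without the untreated library of line 560 the plastic change was -0.22. With the line as a block, which compares within pairs, the BME change was 0.0802 (SE 0.13, limma adjusted p 0.888). After length correction the plastic change was 0.12 (SE 0.25, limma adjusted p 0.914).

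Erbb2, the receptor that pairs with the others without a ligand, varied least among the members with a mean of at least 5 FPKM in both tables (mean absolute difference 0.212 over the 5 pairs). In BME it measured 39.5 FPKM without dox and 41.0 FPKM with it in line 700, 36.1 and 30.7 FPKM in line 889, and 37.7 and 38.3 FPKM in the mock pair. On plastic it measured 22.5 and 24.6 FPKM in line 560, 16.7 and 19.9 FPKM in line 700, and 13.9 and 18.8 FPKM in line 889, higher in 3 of 3 lines by 0.12, 0.24 and 0.41. After length correction the difference in line 560 was -0.34, so the common direction on plastic was lost. The limma changes were 0.26 on plastic (SE 0.24, limma adjusted p 0.830) and -0.09 in BME (SE 0.15, limma adjusted p 0.965). With length correction the plastic change was 0.14 (SE 0.325, limma adjusted p 0.916).

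Erbb3, the neuregulin receptor that recruits PI3 kinase, was lower with dox in 4 of 5 pairs. In BME it measured 55.6 FPKM without dox and 43.0 FPKM with it in line 700, and 45.2 and 30.2 FPKM in line 889 (-0.36 and -0.56). Both dox libraries lay below all 4 control libraries, which included 68.4 FPKM in untreated line 682 and 68.6 FPKM in the mock library (a pair difference of 0.01). The limma change in BME was -0.69 (SE 0.24, limma adjusted p 0.959) and, with the line as a block, -0.46 (SE 0.11, limma adjusted p 0.671). It was -0.31 with the mock library counted as dox. On plastic it measured 15.3 and 8.96 FPKM in line 700 (-0.71), 12.6 and 6.58 FPKM in line 889 (-0.84), and 5.10 and 22.9 FPKM in line 560 (1.97). Line 560 went the other way from lines 700 and 889, and its difference was 1.36 after length correction, so its direction did not depend on that step. The limma change on plastic was 0.14 (SE 0.54, limma adjusted p 0.973), and without the untreated library of line 560 or its dox library it was lower with dox (-0.29 and -0.35). After length correction the plastic change was 0.00946 (SE 0.435, limma adjusted p 0.997). The goblet sum was 4651 FPKM in untreated line 560 against 21.0 and 4.36 FPKM in the other untreated lines on plastic; its part in the difference between lines was not tested.

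The genes nearest to Erbb3 over the 5 pairs were Ncoa2 (0.198), Tbl1x (0.218), Foxo3 (0.251), Mib1 (0.278) and Rps6ka3 (0.304). Each was higher in plastic line 560, by 1.61 to 2.10, and lower in the other 4 pairs. These distances used differences without a correction for length, which moved Erbb3 itself in line 560 from 1.97 to 1.36. The part of transcript length in this likeness was not tested. Foxo3, a transcription factor restrained by PI3 kinase and AKT signaling, differed by -0.33 and -0.53 in BME lines 700 and 889 and by 1.85, -1.10 and -1.24 in plastic lines 560, 700 and 889.

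The inhibitor Errfi1, itself known to be induced by EGFR and MAP kinase signaling, was higher with dox in the 3 plastic pairs but not in both BME pairs. In BME it measured 37.8 FPKM without dox and 26.2 FPKM with it in line 700, 52.9 and 53.9 FPKM in line 889, and 69.1 and 73.3 FPKM in the mock pair, so it was lower in line 700 (-0.51) and nearly level in line 889 (0.03) and in the mock pair (0.08). The plastic levels were 57.9 and 106 FPKM in line 560, 66.0 and 168 FPKM in line 700, and 137 and 173 FPKM in line 889. The dox library was the higher in 3 of 3 plastic pairs, by 0.86, 1.34 and 0.34, and untreated line 889 lay above dox line 560. The limma change was 0.85 on plastic (SE 0.38, limma adjusted p 0.626) and, with the line as a block, had SE 0.26 (limma adjusted p 0.294), against -0.57 in BME (SE 0.37, limma adjusted p 0.959). The BME value rested on few libraries: it was -0.0645 without dox line 700, -1.08 without dox line 889 and -0.13 with the mock library counted as dox. The difference between environments was 1.42 (SE 0.57, limma adjusted p 1.00) and, with the line as a block, 1.09 (SE 0.33, limma adjusted p 0.877). With all libraries it exceeded that of Hbegf (1.02), but without dox line 700 in BME it was 0.91 against 1.61 for Hbegf, so the order of the members by this difference was not fixed.

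**Figure D4:**
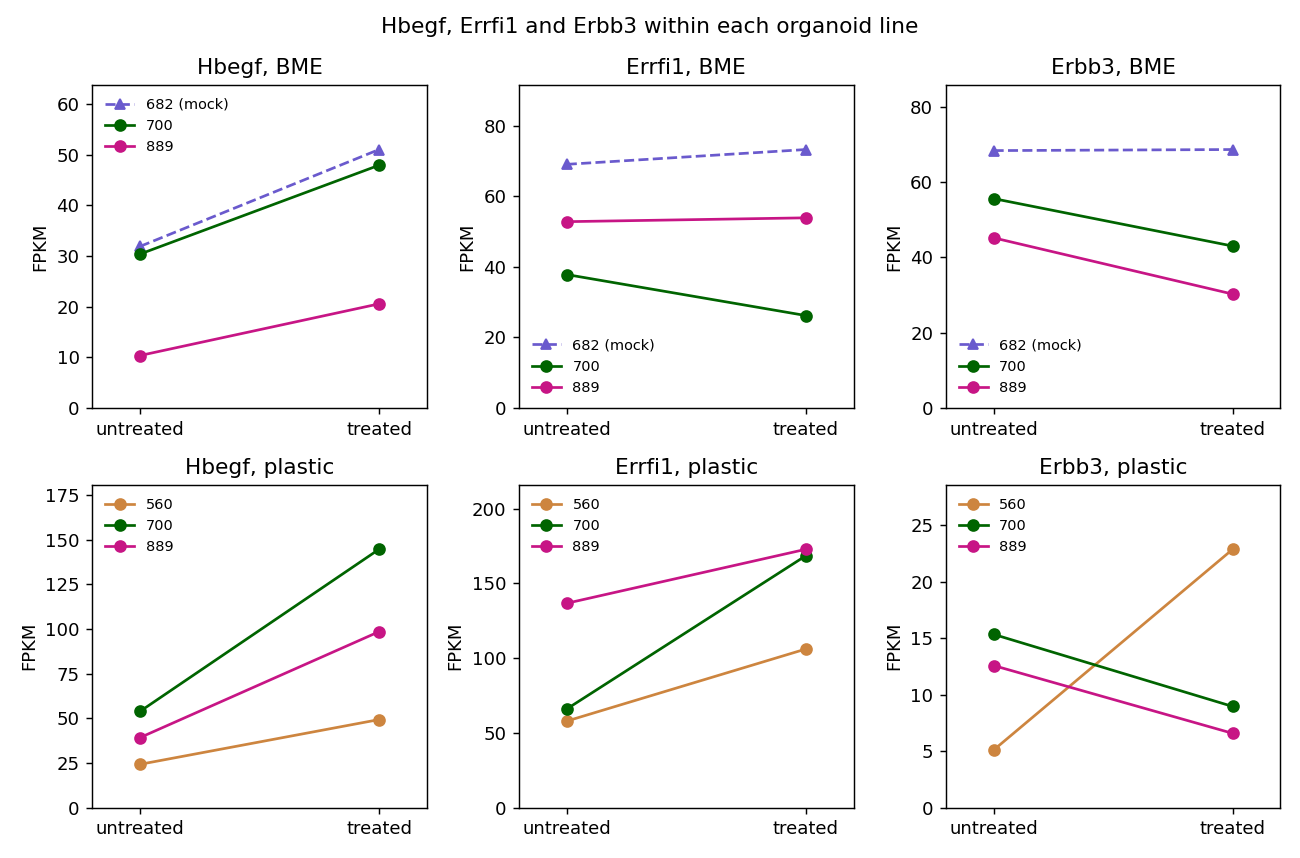
FPKM of Hbegf, Errfi1 and Erbb3 in the untreated and the treated library of each line, in BME (top) and on plastic (bottom), with each line joined and the mock pair dashed; axes start at 0 and differ between panels. Hbegf is higher in each treated library, Errfi1 is higher with dox in the 3 plastic lines, from 57.9 to 106 FPKM in line 560, and Erbb3 crosses on plastic, where line 560 runs from 5.10 to 22.9 FPKM and the other lines run down.

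**Figure D5:**
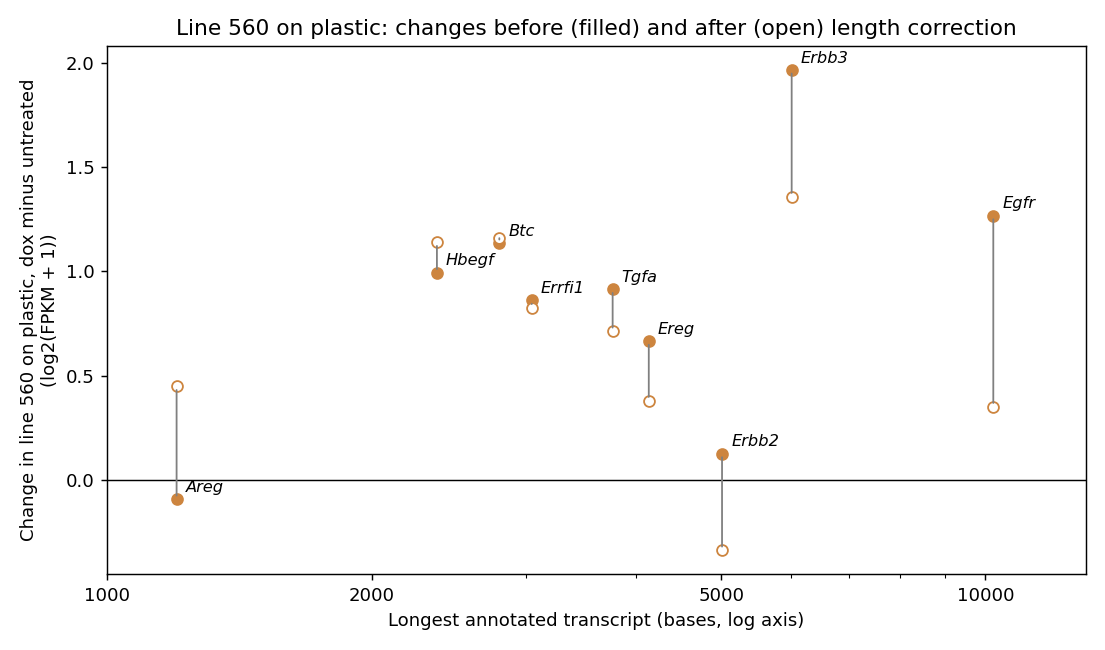
Difference with dox in line 560 on plastic (log2(FPKM + 1)) for the 9 members tested, against the length of the longest annotated transcript (log axis), before (filled) and after (open) correction for length. Egfr drops from 1.27 to 0.35 and Erbb2 from 0.12 to -0.34, while Hbegf goes from 0.99 to 1.14 and Erbb3 stays at 1.36 or above.

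The correction for length acted on line 560 as its plot shows. Over all genes with a mean of at least 5 FPKM, the line 560 pair differed by -0.60 for the shortest and by 0.62 for the longest transcripts, as bounded above. Areg, the shortest member (1199 bases), went from -0.09 to 0.45, Ereg from 0.66 to 0.38 and Tgfa from 0.91 to 0.71. Btc (1.16) and Errfi1 (0.83) were little moved. Hbegf remained the 1 member past 0.5 in every pair after the correction, in BME and on plastic.

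The rest of the pathway was taken from lists of genes and counted in the same fits. Of the other ligands and receptor (Egf, Nrg1, Nrg2, Nrg3, Nrg4 and Erbb4), 0 of 6 reached a mean of 0.5 FPKM in either table, so the neuregulins that bind ERBB3 were under the filter in these organoids. Of 8 measured genes of ligand shedding, 0 passed in limma in either environment (lowest limma adjusted p 0.959 in BME and 0.663 on plastic). Their median mean difference was 0.08 in BME and 0.45 on plastic, where the median over all genes was -0.01 in BME and 0.01 on plastic. Adam9, a membrane metalloprotease, differed by 1.05 and 0.88 in BME lines 700 and 889, by 1.99, 1.12 and 0.17 in plastic lines 560, 700 and 889, and by 1.46 in the mock pair. Adam10, a main sheddase of betacellulin and EGF, differed by 1.65 in plastic line 560 and by -0.17 to 0.52 in the other 4 dox pairs. Adam15 differed by -0.32 to 1.03, and in the mock pair Adam10 differed by 0.10 and Adam15 by 0.09.

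Of 33 adaptors and relay proteins, 0 passed in either environment, 1 was lower at an unadjusted p under 0.05 in BME and 2 were higher on plastic, where 4.09% and 8.29% of all genes were under it in either direction. By over 0.5 in every pair, 1 was higher on plastic, against 3.02% of all genes. This was Map2k1, the MAP kinase kinase MEK1 (0.82, 0.73 and 1.00 on plastic), which differed by 0.40 and 0.08 in BME. Gab1, a docking protein of the receptors, differed by -0.58 and -0.26 in BME and by 0.83, -1.05 and -1.06 in plastic lines 560, 700 and 889. Eps8, a receptor substrate, differed by -0.04 and -0.50 in BME and by 0.30, -0.98 and -1.20 on plastic. Both thus had the sign of Erbb3 in each of the 5 pairs, positive in plastic line 560 and negative in the other 4. Neither was corrected for length in line 560, where the longest transcripts differed by 0.62, and whether the shared sign holds after correction was not tested. In the mock pair Map2k1 differed by 0.28, Gab1 by -0.14 and Eps8 by -0.03.

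Of the genes of receptor uptake and turnover, 21 were tested in BME and 20 on plastic and 0 passed. At an unadjusted p under 0.05, 2 were lower in BME and 2 were higher on plastic, against the same 4.09% and 8.29% of all genes. Stam, an endosomal sorting protein, was the 1 gene higher by over 0.5 in every plastic pair, against 3.02% of all genes. Ptprk, a receptor phosphatase that acts on EGFR, differed by -0.33 and -0.56 in BME and by -0.06, -1.10 and -1.88 on plastic, lower in 5 of 5 dox pairs and 0.18 in the mock pair. Ptprj, a phosphatase of the same kind, was higher in 5 of 5 dox pairs (0.05 to 1.69) and by 0.47 in the mock pair. Cd2ap, an adaptor of receptor uptake, differed by 1.09 in plastic line 560 and by -0.87 to -0.12 in the other 4 dox pairs, with 0.04 in the mock pair.

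Genes that MAP kinase signaling is known to induce, among them its feedback inhibitors, were 15 measured genes in BME and 16 on plastic, and 0 passed in either (lowest limma adjusted p 0.959 and 0.304). At an unadjusted p under 0.05 there were 0 in BME, and 3 higher and 1 lower on plastic, against 8.29% of all genes. On plastic 3 were higher by over 0.5 in every pair (Spry4, Dusp5 and Egr1) and 1 was lower (Spry1), against 3.02% higher and 2.38% lower over all genes, and in BME 0 were, against 2.09% and 1.18%. The median mean difference of the list was 0.05 in BME and 0.54 on plastic, against -0.01 and 0.01 over all genes. Egr1, an immediate early transcription factor, differed by 1.96, 0.70 and 2.90 in plastic lines 560, 700 and 889, by 0.01 and -0.05 in BME and by 0.35 in the mock pair. Dusp5, a phosphatase of ERK, differed by 1.31, 2.08 and 0.92 on plastic, by 0.35 and 0.57 in BME and by 0.34 in the mock pair. Fosl1, an AP-1 subunit, differed by 0.21, 1.86 and 1.11 on plastic, by 0.13 and 1.12 in BME and by 0.55 in the mock pair.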

How the data were processed

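RNA-Seq of 12 libraries was grouped by the sample labels. Per the study's methods and processing notes, the authors quantified reads with kallisto, compared groups with DESeq2 and used mm9; versions are not given in the sources used here. The authors deposited FPKM values in 2 tables, for BME and for plastic, scaled separately over 6 libraries each. The authors' deposited comparison tables also hold a mean normalized count (a signal over all libraries), fold changes and p-values of dox against control; only the first was used, to help rebuild reads from FPKM steps (87.5% to 91.0% of low values whole within 0.03), and their comparisons were not used. Reads serve to describe depth and in 1 alternative.

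Values were analysed as log2(FPKM + 1), which understates changes of low genes. Genes with a mean of at least 0.5 FPKM were tested, 12996 in BME, 12333 on plastic and 11977 in both. Dox (n = 2) was compared with control (n = 4, mock included) in BME, and 3 with 3 on plastic, by limma 3.58.1 (trend, two-sided, no block) in R 4.3.3, adjusted over all genes; the difference between environments was the interaction, with environment as a term. The fit was tested on simulated data. Libraries of a line come from the same organoid line, and same-line deviations correlated at 0.176 to 0.66, so line was used as a block in an alternative. The length correction (longest protein-coding transcript, GENCODE M1) was added after seeing the data.

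All 10 members are named. Nearest genes are given for the 2 members with the largest mean absolute difference over the 5 dox pairs, and up to 3 genes per pathway list by the same measure; Stam, Spry4 and Spry1 were named after their values were seen. The members and lists were chosen with earlier results of these data known.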

Additional observations from a re-analysis of the deposited data

Results flagged for a closer look

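Among the 4 BME control libraries (3 untreated and the mock library), the gap of 1 library to the nearest other was a large part of the group's range for 2 of 10 members, past Dixon's 95% critical value. Egfr had a ratio of 0.881, with untreated line 700 at 11.0 FPKM and the others between 6.37 and 6.92 FPKM. Btc had a ratio of 0.929, again with untreated line 700 apart, at 24.0 FPKM against 16.8 to 17.3 FPKM. Chance gives such a gap in about 1 of 20 groups of independent samples; here 10 members were examined, and 2 of the 4 libraries come from line 682, so they are not independent. Tgfa was lower with dox in both BME pairs and higher in all 3 plastic pairs. With the line as a block, which compares within pairs, the difference between environments was 0.61 (log2, limma adjusted p 0.910). Without the block, where the BME change was 0.0251, it was 0.467 (limma adjusted p 1.00). Neither passed, and the unblocked value was 0.0925 without the untreated library of line 560 on plastic, which stood apart by transcript length.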

How the results depend on the processing

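With the organoid line as a block, genes called went from 3 to 0 in BME and from 4 to 7 on plastic, and the block changed no call of a member. Among the members, 0 were called in BME and on plastic under every alternative run, and Hbegf was the 1 member past 0.5 in every pair under each setting that kept all pairs. Of 432 recomputed member changes, 395 kept their direction and 37 turned, all of values that were not called; the cause was not tested. Genes called in BME were 1 with a pseudocount of 0.1 or in limma-voom, and 0 with a length correction (with or without the block), without the mock library or with it counted as dox. On plastic they were 10 with a pseudocount of 0.1 or in limma-voom, 0 without a filter, and 2 with a length correction (9 with the block); the difference between environments gave 5 without a filter. Leaving out 1 library at a time gave 0 to 37 in BME (37 without dox line 700, 0 otherwise) and 0 to 55 on plastic (55 without dox line 700, 2 without dox line 889). Genes past 0.5 in every pair went from 425 to 662 in BME with a pseudocount of 0.1, and without 1 pair were 1595 to 1856 in BME and 1009 to 1818 on plastic (665 with all pairs), with 3 members in BME and 1 to 2 on plastic.

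Turned BME changes were -0.00423 for Ereg with the replicate block, and for Tgfa -0.12 with the block, -0.046 in limma-voom, -0.11 with length correction and block, -0.00865 without the mock library and -0.0507 with it counted as dox. Turned differences between environments were 0.0737 (block), 0.20 (lines 700 and 889 alone) and 0.23 (length correction with block) for Areg, -0.0456 for Btc, -0.32 for Egfr and -0.32 for Erbb3 (lines 700 and 889 alone), and for Egfr -0.19 with length correction and -0.0315 with the block as well. Without 1 library, BME changes ranged from -0.0688 to 1.02 for Areg, -0.30 to 0.11 for Erbb2, -0.32 to 0.53 for Ereg, -0.37 to 0.81 for Hbegf and -0.18 to 0.23 for Tgfa. Plastic changes ranged from -0.22 to 0.57 for Egfr, -0.35 to 0.48 for Erbb3 and -0.0796 to 0.73 for Ereg. Differences between environments ranged from -0.87 to 0.22 for Areg, -0.14 to 0.37 for Btc, -0.48 to 0.31 for Egfr and -0.18 to 0.69 for Ereg. Values that kept their direction but moved by over 1.5 times without 1 library ranged, in BME, from 0.13 to 0.55 for Btc, 0.0511 to 0.46 for Egfr, -0.93 to -0.44 for Erbb3 and -1.08 to -0.0645 for Errfi1 (the ends being dox line 700 or dox line 889 left out). On plastic they ranged from 0.0519 to 0.24 for Areg, 0.21 to 0.67 for Btc, 0.11 to 0.44 for Erbb2 and 0.12 to 0.77 for Tgfa. Between environments they ranged from 0.43 to 1.61 for Hbegf, 0.15 to 0.56 for Erbb2, 0.34 to 1.16 for Erbb3, 0.91 to 1.92 for Errfi1 and 0.0925 to 0.74 for Tgfa. The lowest limma adjusted p of any member in any fit was 0.0815, for Hbegf on plastic with length correction and block. Depth limits only Epgn among the members (0 to 4 reads). A fit that leaves an arm with 1 library assumes that it varies like the others.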
